A study of Mus musculus with 12 samples.

Results

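The colony-stimulating factors and their receptors were followed as 10 genes across mouse bone marrow monocytes exposed to platelets, to lipopolysaccharide (LPS) or to both. The genes were taken by symbol from the deposited count files, which hold 53819 genes, and all 10 were present and passed the filter on low counts: the ligand genes Csf1, Csf2 and Csf3, and the receptor genes Csf1r, Csf2ra, Csf2rb, Csf2rb2, Csf3r, Flt3 and Il3ra. RNA sequencing gave 12 libraries in 4 groups of 3, and all the monocytes were wild type on the C57Bl6J background. The PLT_LPS group had platelets overnight, then a wash and then LPS, a bacterial outer membrane component that Toll-like receptor 4 detects. The LPS group received LPS alone, the PLT group had platelets overnight, and the NC group received neither. The sources used here give no dose, no time with LPS and no age or sex of the mice.

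Colony-stimulating factors are secreted proteins that keep myeloid cells alive and drive their growth and maturation. Csf1 encodes M-CSF, which acts through the tyrosine kinase receptor encoded by Csf1r and sustains monocytes and macrophages. Csf2 encodes GM-CSF, whose receptor pairs the alpha chain of Csf2ra with the common beta chain of Csf2rb, while interleukin-3 (IL-3) uses the alpha chain of Il3ra with either Csf2rb or, in the mouse, the IL-3-specific beta chain Csf2rb2. Csf3 encodes G-CSF, the growth factor of neutrophils, which acts through Csf3r, and Flt3 is a tyrosine kinase receptor of blood progenitors and dendritic cell precursors.

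The total count per library was 20060867 to 32155727, so that 3 counts in a library correspond to 0.0854 to 0.163 CPM, the read count scaled to library size after trimmed mean (TMM) normalization. Whether replicate libraries stem from different mice or cultures is not stated in the labels, and the p-values therefore reflect spread among libraries that may be technical. PLT replicate 1 carries "Control" in its description field although its title and treatment name platelets, and it stood apart from its replicates, since a chi-square test of its counts against theirs gave 76.2 and 83.5 per degree of freedom, with 6.75 to 21.6 for all other replicate pairs. It was kept in the PLT group, and results that depend on it are given without it as well. In bulk RNA, fewer cells of a type and less RNA per cell cannot be told apart.

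Sequences of the 3 ligand transcripts are shown because all 3 ligand genes rose with LPS. Short AU-rich elements built on ATTTA in a 3′ untranslated region are known as binding sites of mRNA decay factors such as tristetraprolin (Zfp36), and the 30-base stretch of each 3′ untranslated region with the most ATTTA copies is given as DNA from GENCODE M21 (GRCm38), with ATTTA in capitals.
Csf1: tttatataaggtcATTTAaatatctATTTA
Csf2: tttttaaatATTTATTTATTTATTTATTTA
Csf3: gatagtttATTTAtctctATTTAatATTTA
The whole 3′ untranslated regions held 4 copies in Csf1, 9 in Csf2 and 6 in Csf3, counting overlapping copies, which is 1.89, 28.4 and 8.97 per kb. Copies were also found in Csf1r and Flt3 and in none of the other 5 receptor genes. ATTTA stood in the 3′ untranslated region of 65.1% of 20911 genes. A run of 3 copies, each sharing a base with the next, stood in 1.02% of them and, among the 10 genes, in Csf2 alone.

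The promoter of Csf1 is shown because it was the ligand with the highest counts and the promoter table held its window. The window spans the transcription start (RefSeq, GRCm38.p6, chr3:107760420-107760719, minus strand), and capitals mark a match, on the opposite strand, to the NF-kB site of the immunoglobulin kappa enhancer.
Csf1 promoter: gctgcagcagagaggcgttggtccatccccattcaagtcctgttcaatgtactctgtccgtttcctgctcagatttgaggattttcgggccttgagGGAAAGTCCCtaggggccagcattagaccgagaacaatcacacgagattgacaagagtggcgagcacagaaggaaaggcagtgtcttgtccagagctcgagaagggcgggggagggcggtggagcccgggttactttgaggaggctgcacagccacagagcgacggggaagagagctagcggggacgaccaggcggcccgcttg
The match lies at −154 to −145 from the start. Searched on both strands, the 10 letters of that site were present in 0.155% of 32851 promoters in the table and in 1 of the 7 promoters found for these genes. The looser form, GGG and CC with 5 bases of any kind between them, overlaps that match and was present in 50.8% of promoters and in 5 of the 7. Also searched were the AP-1 form TGANTCA, present in 7.81% of promoters and in 0 of the 7, and the STAT form TTCNNNGAA, present in 8.30% and in 1 of the 7, Csf2rb2. A match describes these letters and is not a measured binding site.

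LPS raised the ligand genes Csf1, Csf2 and Csf3 and the receptor genes Csf2rb, Csf2rb2 and Csf3r, both with and without platelets. Csf1r and Csf2ra passed only in PLT_LPS against PLT cells, and Flt3 only in LPS against NC cells. The platelet comparisons called 1 of the 10 genes without LPS and 0 with it, near the shares over all genes. Without PLT replicate 1 those counts were 4 and 2, where 6.53% and 12.1% of all genes were called. LPS cells had 7 of the 10 genes higher and 0 lower than NC cells, where 50.7% of all 13151 tested genes were called (27.7% higher, 23.0% lower). PLT_LPS cells had 8 higher and 0 lower than PLT cells, where 49.4% of all genes were called (27.6% higher, 21.8% lower). The median log2 fold change of the 10 genes was 1.82 in LPS against NC cells (1.82 also with Csf2, absent from NC, at its lower bound) and 1.73 in PLT_LPS against PLT cells, with 0.01 and 0.02 over all tested genes. PLT cells had 1 gene higher, Flt3, and 0 lower than NC cells, where 6.49% of all genes were called (3.63% higher, 2.86% lower), and the unadjusted p was under 0.05 for 6 of the 10. PLT_LPS cells had 0 genes called against LPS cells, where 7.28% of all genes were called (4.41% higher, 2.87% lower). There the unadjusted p was under 0.05 for 2, Csf2rb2 and Il3ra, and DESeq2 and limma-voom each called 1, Csf2rb2. Calls are at a Benjamini-Hochberg adjusted p under 0.05 in edgeR's quasi-likelihood test.

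**Figure D1:**
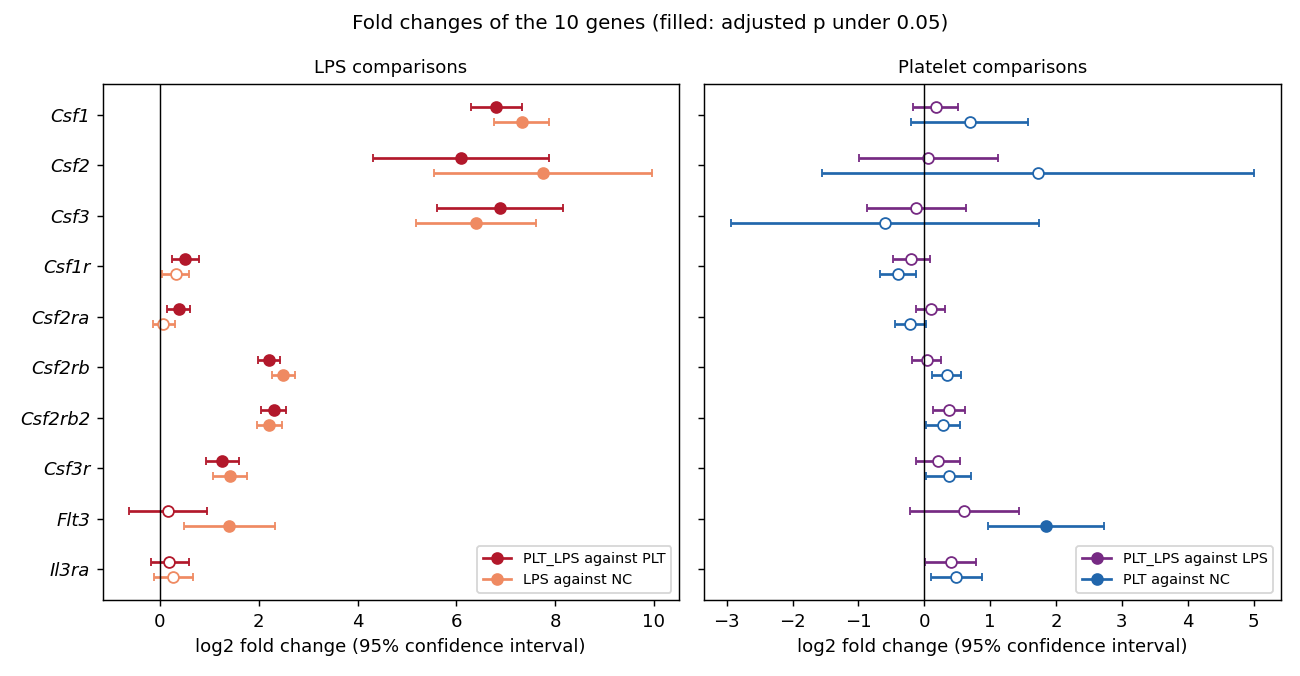
Log2 fold changes (x axis, with 95% confidence intervals) of the 10 genes (y axis) in the LPS comparisons on the left and the platelet comparisons on the right; filled points have an adjusted p under 0.05. In the LPS comparisons Csf1 lies at 6.80 and 7.32, while the Csf2 points depend on the prior count because PLT and NC libraries held 1 and 0 counts. Flt3 in PLT against NC is the filled point of the platelet comparisons.

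Csf1 (GRCm38 chr3:107741048-107760469, minus strand, 5281 exonic bases), which encodes M-CSF, was near the counting floor without LPS and abundant with it. PLT_LPS libraries had 55.7, 58.3 and 68.9 CPM, LPS libraries 52.7, 53.1 and 57.0 CPM, PLT libraries 0.211, 0.875 and 0.512 CPM, and NC libraries 0.281, 0.491 and 0.238 CPM. Every library given LPS lay far above every library without it, and the PLT and NC values overlapped. The rise was 160-fold in LPS against NC cells (log2 7.32, SE 0.26, adjusted p = 1.23e-12) and 111-fold in PLT_LPS against PLT cells (log2 6.80, SE 0.24, adjusted p = 1.25e-12). Platelets made no difference past the threshold, with a log2 fold change of 0.17 in PLT_LPS against LPS cells (95% interval −0.17 to 0.51) and 0.69 in PLT against NC cells (−0.20 to 1.57).

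Csf2 (chr11:54247271-54249667, minus strand, 800 exonic bases), which encodes GM-CSF, was detected at low counts with LPS. PLT_LPS libraries had 19, 35 and 23 counts (0.691, 1.5 and 0.900 CPM) and LPS libraries 34, 19 and 17 counts (1.23, 0.772 and 0.926 CPM). PLT libraries had 1, 0 and 0 counts and NC libraries 0, 0 and 0. The 6 libraries given LPS all lay above the 6 without it, and PLT_LPS and LPS values overlapped. Csf2 was at least 9.52-fold higher in LPS than in NC cells, with NC taken at the floor of 3 counts per library (adjusted p = 2.20e-05). In PLT_LPS against PLT cells, where PLT held 1 count in all, the ratio was 96.3 with a 95% counting interval of 16.8 to 3852 (adjusted p = 2.97e-05). The platelet difference under LPS was 0.06 on the log2 scale (95% interval −0.99 to 1.12), wide because of the low counts.

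Csf3 (chr11:98701263-98703629, plus strand, 1413 exonic bases), which encodes G-CSF, followed the same order. PLT_LPS libraries had 7.64, 7.79 and 4.50 CPM, and LPS libraries 9.16, 5.61 and 6.92 CPM. PLT libraries had 0, 0 and 0.142 CPM and NC libraries 0.140, 0.105 and 0 CPM, all of 5 counts or fewer. The groups with LPS lay above those without it, and neither platelet pair separated. Csf3 was 84.6-fold higher in LPS than in NC cells (log2 6.40, SE 0.57, adjusted p = 1.08e-07) and 118-fold higher in PLT_LPS than in PLT cells (log2 6.88, SE 0.60, adjusted p = 8.61e-08). These folds rest on 7 counts over the NC libraries and 5 over the PLT libraries, which gave ratios with 95% counting intervals of 43.7 to 226 and 54.0 to 392. In PLT_LPS against LPS cells the log2 difference was −0.12 (95% interval −0.87 to 0.63).

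**Figure D2:**
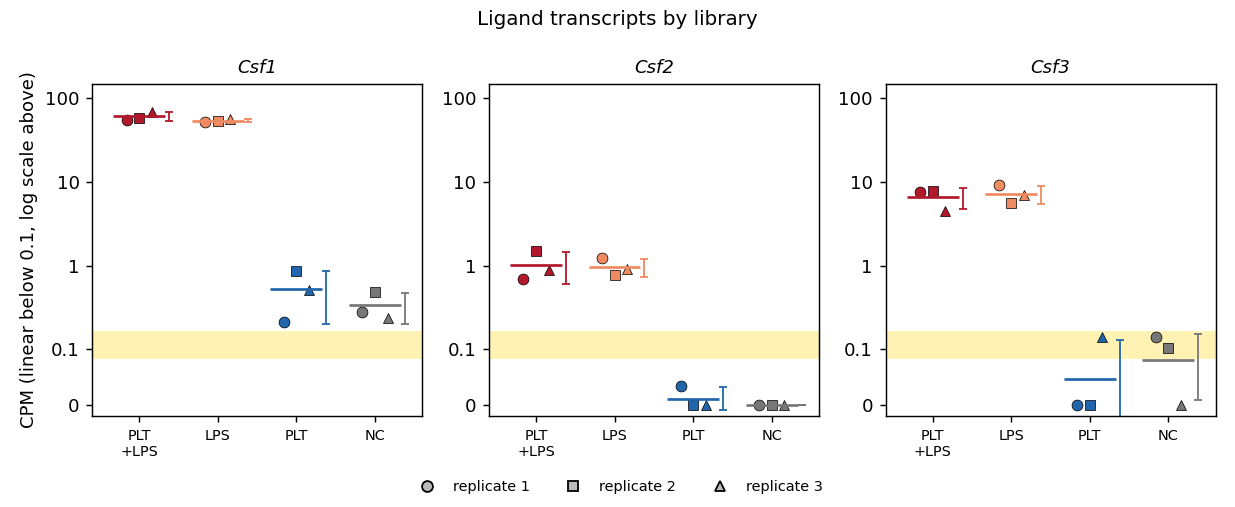
CPM of the 3 ligand genes (y axis, linear below 0.1 and logarithmic above) in each library by group; symbols mark the replicate, horizontal lines the group mean, error bars ± SD (n = 3, lower ends clipped at the axis) and the yellow band the CPM of 3 counts, 0.0854 to 0.163. The PLT and NC points of Csf2 and Csf3 lie at or below the band, and all points of the groups with LPS lie above it.

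Csf1r (chr18:61100598-61132149, plus strand, 5774 exonic bases), the M-CSF receptor, was the highest of the 10 genes in every group. PLT_LPS libraries had 1541, 1426 and 1497 CPM, LPS libraries 1687, 1667 and 1770.1 CPM, PLT libraries 746, 1156 and 1224 CPM, and NC libraries 1423, 1393 and 1301 CPM. The LPS libraries were the highest group and PLT replicate 1 was the lowest library, and no library of PLT reached one of NC. The rise in PLT_LPS against PLT cells passed the test (1.43-fold, log2 0.51, SE 0.13, adjusted p = 0.0039), at 1488 ± 57.6 against 1042 ± 259 CPM (SD, n = 3 each), and without PLT replicate 1 the log2 value was 0.27 (adjusted p = 0.00176). With library size alone as the scale, the log2 value was 0.15 (adjusted p = 0.405). In LPS against NC cells the log2 value was 0.32 (adjusted p = 0.0552), and −0.06 (adjusted p = 0.723) on library size alone. Without PLT replicate 1, which changes the shared estimate of spread, it was 0.30 (adjusted p = 0.000208). It also passed with no filter (adjusted p = 0.00907), with only the groups compared (0.00117) and without PLT replicate 3 (0.0348).

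The difference of Csf1r between PLT and NC cells was −0.40 (SE 0.13, adjusted p = 0.0895). It was −0.18 without PLT replicate 1 and −0.53 without PLT replicate 3, where the adjusted p was 0.0255. With no filter on low counts it was −0.39 (adjusted p = 0.00153). PLT_LPS cells were at −0.20 against LPS cells (unadjusted p = 0.148, adjusted p = 0.456), and −0.21 with an adjusted p of 0.0162 without PLT replicate 1 and 0.0314 with only the groups compared. In GENCODE M21, 873 exonic bases of Csf1r overlap Hmgxb3 on the other strand, which had 21.9 to 37.2 CPM per library, and the strand setting of the counts is not known here.

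Csf2ra (chr19:61223957-61228429, minus strand, 2871 exonic bases), the alpha chain of the GM-CSF receptor, changed little. It had 318, 343 and 309 CPM in PLT_LPS libraries, 307, 324 and 277 CPM in LPS libraries, 206, 260 and 281 CPM in PLT libraries, and 267, 301 and 296 CPM in NC libraries. PLT_LPS libraries were all above PLT libraries and above NC libraries, and PLT_LPS overlapped LPS, LPS overlapped NC and PLT overlapped NC. Csf2ra was 1.30-fold higher in PLT_LPS than in PLT cells (log2 0.38, SE 0.11, adjusted p = 0.00782), 0.20 on the log2 scale without PLT replicate 1 (adjusted p = 0.0399) and 0.01 on library size alone (adjusted p = 0.925). In LPS against NC cells the log2 value was 0.07 (95% interval −0.15 to 0.30), and −0.31 (adjusted p = 0.0267) on library size alone. Library size alone moved the median of all tested genes to −0.37 in LPS against NC and −0.34 in PLT_LPS against PLT cells, against 0.01 and 0.02 with TMM. Fold changes are given on the TMM scale and are thus relative to most tested genes.

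Csf2rb (chr15:78325752-78353847, plus strand, 7277 exonic bases), the common beta chain of the GM-CSF and IL-3 receptors, rose with LPS in every library. PLT_LPS libraries had 241, 239 and 244 CPM, LPS libraries 232, 222 and 251 CPM, PLT libraries 44.9, 56.9 and 55.1 CPM, and NC libraries 46.6, 39.2 and 38.3 CPM. The 6 libraries given LPS all lay above 200 CPM and the 6 others below 60. Csf2rb was 5.67-fold higher in LPS than in NC cells (log2 2.50, SE 0.11, adjusted p = 1.27e-11) and 4.62-fold higher in PLT_LPS than in PLT cells (log2 2.21, SE 0.11, adjusted p = 5.52e-11). PLT cells were at 0.34 on the log2 scale against NC cells (SE 0.10, adjusted p = 0.0687), and at 0.46 (adjusted p = 0.00364) without PLT replicate 1. DESeq2 called the same difference (0.35, adjusted p = 0.0333), and it passed without NC replicate 1 (0.43, adjusted p = 0.0498). In PLT_LPS against LPS cells the log2 value was 0.04 (95% interval −0.18 to 0.26).

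Csf2rb2 (chr15:78282507-78305721, minus strand, 4740 exonic bases), the beta chain specific to IL-3 in the mouse, lies beside Csf2rb and rose with LPS as well. PLT_LPS libraries had 67.5, 63.2 and 59.7 CPM, LPS libraries 49.1, 47.9 and 50.7 CPM, PLT libraries 10.4, 13.9 and 14.3 CPM, and NC libraries 9.68, 10.8 and 11.3 CPM. All PLT_LPS libraries exceeded all LPS libraries, and PLT overlapped NC. The rise was 4.64-fold in LPS against NC cells (log2 2.21, SE 0.12, adjusted p = 2.31e-10) and 4.93-fold in PLT_LPS against PLT cells (log2 2.30, SE 0.12, adjusted p = 1.28e-10). PLT_LPS cells were 1.29-fold above LPS cells (log2 0.37, SE 0.11), and the adjusted p of edgeR was 0.0619. The same comparison had an adjusted p of 0.0345 with DESeq2, 0.0312 with limma-voom, 0.0110 when only the groups compared were fitted and 0.00785 without PLT replicate 1. PLT cells were at 0.28 against NC cells (adjusted p = 0.204), and at 0.43 (adjusted p = 0.0135) without PLT replicate 1.

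The coding sequences of the beta chain genes are near-identical, and reads of stretches they share cannot be assigned to either gene. Over 2631 aligned bases of coding sequence the identity was 95.2%, with 126 differing bases. Of the 50-base windows of coding sequence, 26.0% in Csf2rb and 26.5% in Csf2rb2 occurred in the other gene. The 90-base stretches that differ most (GRCm38, coding bases 308 to 397 of Csf2rb and 311 to 400 of Csf2rb2) are shown because such stretches are what tells the transcripts apart, with the 16 differing bases in capitals.
Csf2rb: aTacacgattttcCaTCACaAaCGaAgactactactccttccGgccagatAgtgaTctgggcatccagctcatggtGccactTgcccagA
Csf2rb2: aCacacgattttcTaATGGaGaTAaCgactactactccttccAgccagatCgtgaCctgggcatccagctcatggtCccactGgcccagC
Csf2rb2 made up 20.8 ± 1.11% of the counts of both beta chains in PLT_LPS libraries, 17.3 ± 0.468% in LPS libraries, 19.7 ± 0.860% in PLT libraries and 20.5 ± 2.95% in NC libraries (SD, n = 3 each). PLT_LPS libraries, at 21.8, 20.9 and 19.6%, all had a larger share than LPS libraries, at 17.5, 17.7 and 16.8%. With both beta chains summed into a single gene, the log2 value was 2.45 in LPS against NC cells and 0.10 in PLT_LPS against LPS cells (adjusted p = 0.635).

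Csf3r (chr4:126024550-126044440, plus strand, 3609 exonic bases), the G-CSF receptor, rose with LPS. PLT_LPS libraries had 73.8, 69.9 and 57.6 CPM, LPS libraries 61.1, 52.4 and 60.4 CPM, PLT libraries 19.8, 32.8 and 31.1 CPM, and NC libraries 23.4, 22.1 and 19.6 CPM. The groups with LPS did not overlap those without it, whereas the platelet pairs overlapped. Csf3r was 2.67-fold higher in LPS than in NC cells (log2 1.42, SE 0.16, adjusted p = 1.69e-06) and 2.40-fold higher in PLT_LPS than in PLT cells (log2 1.26, SE 0.16, adjusted p = 5.61e-06). PLT cells were at 0.37 against NC cells (adjusted p = 0.210), and at 0.58 (adjusted p = 0.00396) without PLT replicate 1. The 8 neutrophil markers summed to 162 to 186 CPM in PLT_LPS, 255 to 306 CPM in LPS, 154 to 196 CPM in PLT and 340.4 to 361 CPM in NC libraries, mostly from Mmp8. Of 6 tested, 2 were higher and 2 lower both in LPS against NC and in PLT_LPS against PLT cells. Over all genes, 27.7% were higher and 23.0% lower in the first of these comparisons, and 27.6% and 21.8% in the second. Lcn2 had 35.1 to 45.3 CPM in PLT_LPS, 47.0 to 49.3 CPM in LPS, 1.63 to 2.45 CPM in PLT and 1.09 to 2.21 CPM in NC libraries, while the defining marker Ly6g was at or near 0 in every library. Their part in the level of Csf3r was not tested.

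Flt3 (chr5:147330741-147400489, minus strand, 6176 exonic bases), the receptor of Flt3 ligand, was rare in all groups and lowest in NC cells. PLT_LPS libraries had 58, 26 and 36 counts (2.11, 1.11 and 1.41 CPM), LPS libraries 32, 15 and 24 counts (1.16, 0.609 and 1.31 CPM), PLT libraries 36, 38 and 60 counts (1.27, 1.19 and 1.71 CPM), and NC libraries 11, 14 and 8 counts (0.386, 0.491 and 0.272 CPM). Every library outside NC lay above every NC library, and the PLT_LPS, LPS and PLT ranges overlapped. Flt3 was 3.61-fold higher in PLT than in NC cells (log2 1.85, SE 0.41, adjusted p = 0.0137) and 2.64-fold higher in LPS than in NC cells (log2 1.40, SE 0.43, adjusted p = 0.0126). Each call depended on single NC libraries: for PLT the adjusted p was 0.0582 without NC replicate 1 and 0.0607 without NC replicate 3, and for LPS it was 0.0542 without NC replicate 3 and 0.0522 on library size alone. Among PLT_LPS, LPS and PLT the fold changes did not pass the test, at 0.60 on the log2 scale in PLT_LPS against LPS cells (95% interval −0.22 to 1.43) and 0.16 in PLT_LPS against PLT cells (−0.63 to 0.95).

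Markers of dendritic cells and of basophils and mast cells, which can express Flt3 or Il3ra, had larger summed levels in PLT than in NC libraries. The summed level of the 9 dendritic cell markers was 7.19 to 9.14 CPM in PLT and 4.15 to 5.65 CPM in NC libraries. Of 8 tested, 2 were higher and 0 lower, where 3.63% of all genes were higher. Ccr7, which activated myeloid cells also make, had 1.59 to 3.02 CPM in PLT and 0.170 to 0.561 CPM in NC libraries. Cd209a overlapped, at 0.844 to 1.30 and 0.612 to 1.86 CPM. In PLT_LPS libraries the sum was 87.9 to 101 CPM and in LPS libraries 76.3 to 92.7 CPM, mostly from Ccr7 and Fscn1, which activated myeloid cells also make. The 8 basophil and mast cell markers summed to 8.02 to 10.2 CPM in PLT and 1.58 to 2.77 CPM in NC libraries, with 4 of 6 tested higher. In PLT_LPS and LPS libraries they summed to 83.1 to 94.4 CPM and 104 to 107 CPM, mostly from Hdc. Of 6 tested, 2 were higher and 0 lower in PLT_LPS than in LPS cells, where 4.41% of all genes were higher. Prss34 had 2.86 to 5.57 CPM in PLT_LPS and 0.284 to 0.362 CPM in LPS libraries. Hdc went the other way, with 78.0 to 82.7 CPM in PLT_LPS and 102 to 105 CPM in LPS libraries. The part of these cells in the values of Flt3 and Il3ra was not tested.

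Il3ra (chr14:14346275-14356011, plus strand, 2967 exonic bases), the alpha chain of the IL-3 receptor, differed by small amounts. PLT_LPS libraries had 16.6, 17.0 and 14.5 CPM, LPS libraries 10.4, 13.4 and 12.7 CPM, PLT libraries 19.1, 12.4 and 10.7 CPM, and NC libraries 10.6, 10.03 and 9.49 CPM. All PLT_LPS libraries exceeded all LPS libraries and all PLT libraries exceeded all NC libraries, though PLT replicate 1 was well above its replicates. No comparison of Il3ra passed the test with all libraries: the log2 value was 0.48 in PLT against NC cells (adjusted p = 0.141), 0.40 in PLT_LPS against LPS cells (adjusted p = 0.239), 0.27 in LPS against NC cells (adjusted p = 0.240) and 0.19 in PLT_LPS against PLT cells (adjusted p = 0.401). In PLT against NC cells the value was 0.22 without PLT replicate 1 and 0.65 (adjusted p = 0.0371) without PLT replicate 3. Without PLT replicate 1 it was 0.42 in PLT_LPS against PLT cells, where the adjusted p was 0.0238.

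**Figure D3:**
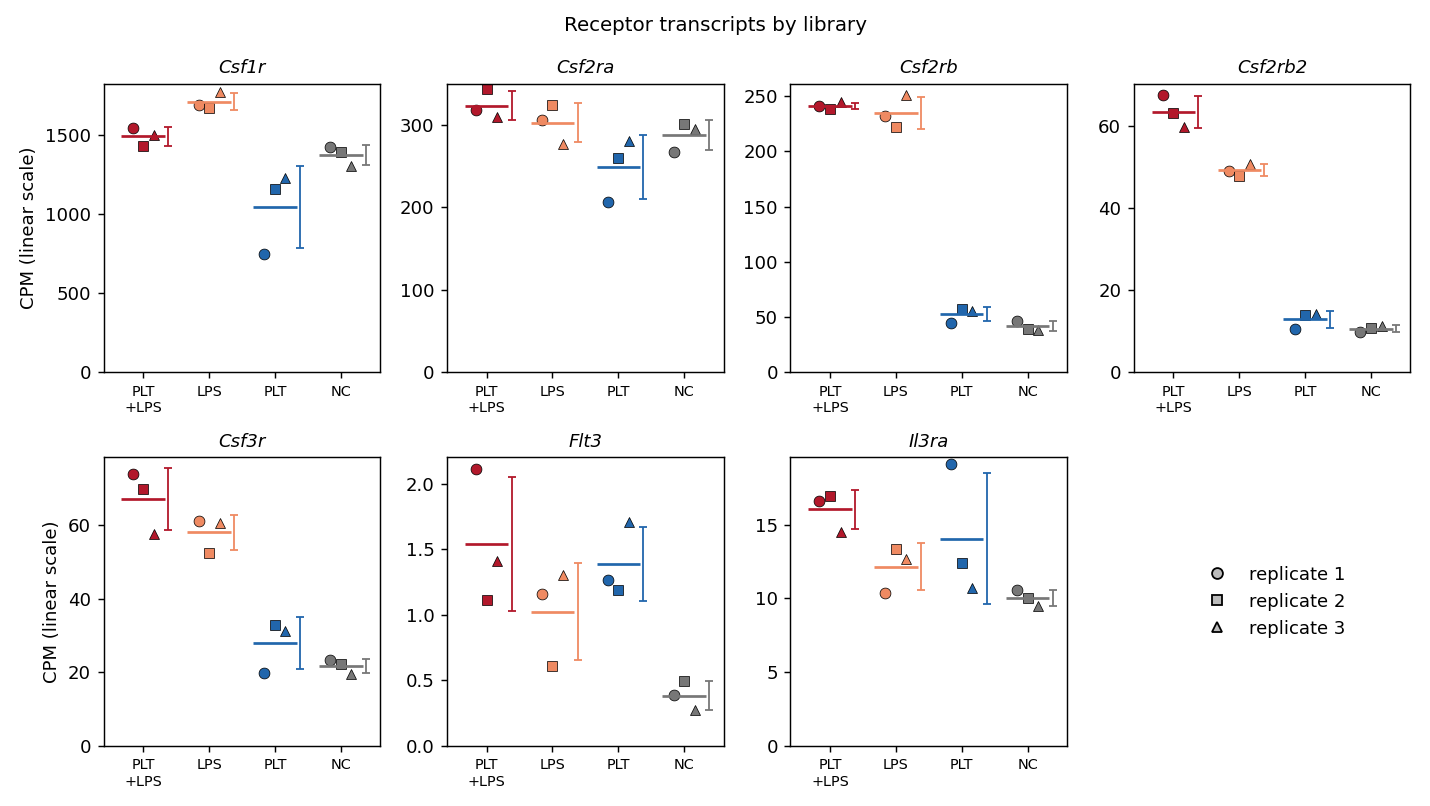
CPM of the 7 receptor genes (y axis, linear from 0) in each library by group; symbols mark the replicate, horizontal lines the group mean and error bars ± SD (n = 3). Csf2rb, Csf2rb2 and Csf3r separate the groups with LPS from those without it, and PLT replicate 1 is the lowest PLT library for Csf1r (746 CPM) and the highest for Il3ra (19.1 CPM).

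PLT replicate 1 was the lowest PLT library for Csf1, Csf1r, Csf2ra, Csf2rb, Csf2rb2 and Csf3r. Without it, 4 of the 10 genes were higher and 0 lower in PLT than in NC cells, Flt3, Csf2rb, Csf2rb2 and Csf3r, where 6.53% of all genes were called. Against LPS cells, PLT_LPS cells then had Csf2rb2 higher and Csf1r lower, where 12.1% of all genes were called. That library also had the highest levels of several platelet transcripts. Gng11 reached 148 CPM in it, with 77.1 and 73.6 CPM in the other PLT libraries and 1.65 to 2.07 CPM in NC libraries. Pf4 reached 5729 CPM in it, with 3495 and 3147 CPM in the other PLT libraries and 3542 to 4249 CPM in NC libraries. Itga2b and Gp1ba, both at low counts, were lowest in it among PLT libraries, at 0.246 and 0.0704 CPM. The part of PLT replicate 1 in these results was not tested beyond leaving it out.

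The question of whether platelets altered the LPS response was put as the interaction, the platelet difference with LPS minus that without it. None of the 10 genes passed, where 1.58% of all genes were called. Flt3 alone had an unadjusted p under 0.05 (log2 −1.25, SE 0.57, unadjusted p = 0.0436, adjusted p = 0.443), and DESeq2 and limma-voom called 0. For Csf2rb the interaction was −0.30 (95% interval −0.61 to 0.01), for Csf2ra 0.31 (−0.02 to 0.63), for Csf1r 0.20 (−0.19 to 0.59) and for Csf1 −0.52 (−1.46 to 0.43). The intervals of Csf2 (−4.90 to 1.58) and Csf3 (−1.93 to 2.88) were wide because of the low counts.

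Levels per kb of exon put all 7 receptors above the ligands in PLT libraries, and 6 of the 7, all but Flt3, in NC libraries. In PLT libraries Flt3 averaged 0.225 ± 0.0454 CPM per kb and Csf1, the highest ligand there, 0.101 ± 0.0630. Csf1r averaged 258 ± 9.98 CPM per kb in PLT_LPS, 296 ± 9.47 in LPS, 180.4 ± 44.8 in PLT and 238 ± 10.99 in NC libraries (SD, n = 3 each). Csf2ra was next in every group, at 113, 105, 86.7 and 100.3 CPM per kb in PLT_LPS, LPS, PLT and NC libraries. In NC libraries Csf3r (6.01 ± 0.538 CPM per kb), Csf2rb (5.69 ± 0.628), Il3ra (3.38 ± 0.180) and Csf2rb2 (2.24 ± 0.175) followed, and the ranges of Csf3r and Csf2rb overlapped. Csf1, Flt3 and Csf3 did not differ beyond their spread there, at 0.0637 ± 0.0256, 0.0620 ± 0.0177 and 0.0579 ± 0.0517 CPM per kb, and Csf2 had 0 counts. With LPS, Csf1 came to 11.5 ± 1.32 CPM per kb in PLT_LPS and 10.3 ± 0.446 in LPS libraries, close to Csf2rb2 at 13.4 ± 0.821 and 10.4 ± 0.304. Csf3 (4.70 ± 1.32 and 5.12 ± 1.27) and Csf2 (1.29 ± 0.524 and 1.22 ± 0.292) were lower in the same PLT_LPS and LPS libraries.

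**Figure D4:**
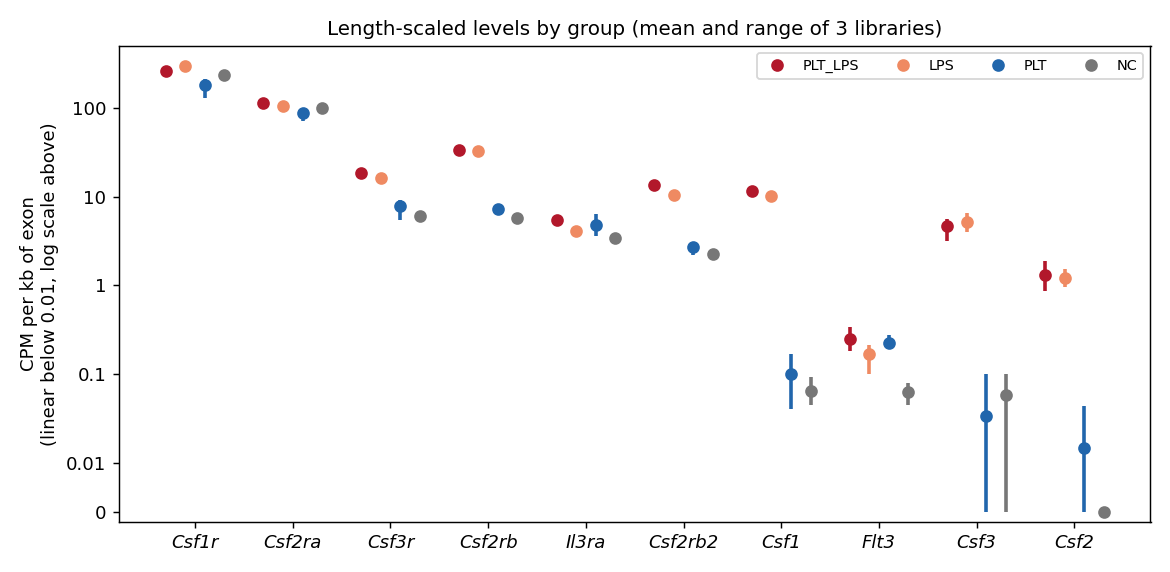
Mean CPM per kb of exon (y axis, linear below 0.01 and logarithmic above) of the 10 genes, ordered by their NC mean, in the 4 groups; vertical lines span the lowest and highest of 3 libraries. Csf1r is highest in every group, and Csf1, Csf3 and Csf2 change their place between the groups with and without LPS.

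Most genes listed as carrying the signal of these receptors rose with LPS. Counts in all 6 pathway lists are to be read beside the shares over all tested genes. Those were 27.7% higher and 23.0% lower in LPS against NC cells, and 27.6% and 21.8% in PLT_LPS against PLT cells. For platelets they were 4.41% and 2.87% in PLT_LPS against LPS cells, and 3.63% and 2.86% in PLT against NC cells. Without PLT replicate 1, 12.1% of all genes were called in PLT_LPS against LPS cells and 6.53% in PLT against NC cells. No list was tested against these shares. Of 23 signal transducers, 18 were higher and 2 lower in LPS than in NC cells, and 18 were higher and 3 lower in PLT_LPS than in PLT cells, with median log2 fold changes of 0.61 and 0.88, against 0.01 and 0.02 over all tested genes. The kinase Src was 75.7-fold higher in LPS than in NC cells, at 13.5 ± 1.003 against 0.173 ± 0.0319 CPM (adjusted p = 1.55e-12), and Jak2, the kinase bound to the beta chains, was 11.9-fold higher (adjusted p = 1.08e-11; named after its values were seen). Of the 23, PLT_LPS against LPS cells had 2 higher and 2 lower. There the Src-family kinase Fgr was 1.70-fold higher (adjusted p = 0.000781) and the kinase Syk 1.35-fold lower (adjusted p = 0.00559). Fgr was the 1 transducer higher in PLT than in NC cells (1.54-fold, adjusted p = 0.00492), with 0 lower.

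Negative regulators moved in both directions, as did all tested genes. Of 15, 9 were higher and 5 lower in LPS than in NC cells, and 9 were higher and 3 lower in PLT_LPS than in PLT cells, with median log2 fold changes of 1.35 and 1.16. Socs3, which blocks the G-CSF receptor, had 508 ± 21.9 CPM in LPS and 1.80 ± 0.201 CPM in NC libraries, a 282-fold difference (adjusted p = 9.92e-17), and the related inhibitor Socs1 was 20.9-fold higher. Dok2, an adaptor that dampens kinase signalling, was 4.18-fold lower (adjusted p = 3.15e-11). PLT_LPS cells had 2 higher and 2 lower than LPS cells: the lipid phosphatase Inpp5d was 1.45-fold higher (adjusted p = 0.0234), Socs1 1.37-fold higher (adjusted p = 0.0241) and the phosphatase Ptpn6 1.24-fold lower (adjusted p = 0.0262). In PLT against NC cells 2 were higher and 0 lower, among them the adaptor Sla at 1.38-fold (adjusted p = 0.0125), and without PLT replicate 1 the count was 1 higher.

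Of 15 genes known to respond to GM-CSF, IL-3 or M-CSF, 8 were higher and 5 lower in LPS than in NC cells, and 8 were higher and 6 lower in PLT_LPS than in PLT cells, with medians of 0.45 and 0.85. The chemokine Ccl22 was 168-fold and the kinase Pim2 23.9-fold higher in LPS than in NC cells, while Bcl2l1, which protects against cell death, was 5.03-fold lower (adjusted p = 5.94e-13). Plau, the urokinase gene, was 28.9-fold lower in PLT_LPS than in PLT cells (adjusted p = 1.09e-12). With LPS present, PLT_LPS cells had 3 of the 15 higher and 2 lower than LPS cells. Bcl2l1 was 1.77-fold higher there (adjusted p = 4.91e-06), the survival gene Mcl1 1.36-fold higher (adjusted p = 0.000619) and Pim2 1.61-fold lower (adjusted p = 0.00123). Without PLT replicate 1 the counts in that comparison were 6 higher and 3 lower, where 12.1% of all genes were called. In PLT against NC cells 2 were higher, Ccnd2 (1.49-fold, adjusted p = 0.0249) and Mcl1 (1.20-fold, adjusted p = 0.031), and 2 lower, among them the nuclear receptor Pparg (1.48-fold, adjusted p = 0.00924).

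Transcription factors known to act on the receptor genes also moved in both directions, with 7 of 14 higher and 5 lower in LPS than in NC cells, and 6 higher and 4 lower in PLT_LPS than in PLT cells. The medians were 0.54 and 0.35. Fli1, a factor of the ETS family, was 6.18-fold lower in LPS than in NC cells, at 18.2 ± 2.26 against 112 ± 6.96 CPM (adjusted p = 1.60e-11). Cebpd was 9.68-fold higher (adjusted p = 4.91e-13). In PLT_LPS against LPS cells 3 were higher and 1 lower. Among them Irf8, a factor of monocyte development, was 1.72-fold higher (adjusted p = 4.90e-05) and Cebpd 1.42-fold lower (adjusted p = 0.00483). Without PLT replicate 1, 3 were higher and 2 lower, where 12.1% of all genes were called. Runx1, a factor of blood cell development, was 1.40-fold lower in PLT than in NC cells (adjusted p = 0.0371), where 1 of 14 was higher and 1 lower; without PLT replicate 1 the counts were 0 and 0.

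Among 11 tested genes of receptor shedding and of cytokine mRNA decay, 6 were higher and 3 lower in LPS than in NC cells, and 8 were higher and 2 lower in PLT_LPS than in PLT cells, with medians of 0.25 and 0.38. Zfp36, which binds AU-rich elements, was 4.09-fold higher in LPS than in NC cells (adjusted p = 1.31e-11), at 557 ± 13.0 against 136 ± 9.11 CPM. Its binding to the ligand transcripts was not tested. Zc3h12a, an RNase of cytokine mRNAs, was 13.8-fold higher and Zfp36l2 was 9.98-fold lower. Zfp36l2 was 1.44-fold higher in PLT_LPS than in LPS cells (adjusted p = 0.00791), the 1 gene of the 11 called there, with 0 lower. In PLT against NC cells Zfp36l1 was 1.69-fold higher (adjusted p = 0.00427) and Zfp36l2 1.57-fold lower (adjusted p = 0.00112), the 2 called of 11.

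Other growth factor genes of blood cells were sparse. Of 13, 7 were tested, and Il3, Il5, Il5ra, Epo, Epor and Thpo were too low to test. In LPS against NC cells 3 were higher and 2 lower, and the same counts were found in PLT_LPS against PLT cells, with medians of 3.74 and 0.60. For the 2 genes absent from NC libraries the fold was replaced by its bound, or by no change where LPS counts were too few for a bound. The median in LPS against NC cells was then 0, which is the value set for no change and not a measured fold. Il7r, the interleukin-7 receptor alpha chain, was 2.66-fold lower in LPS than in NC cells (adjusted p = 6.08e-09), at 29.1 ± 1.37 against 77.4 ± 5.26 CPM. It was 2.48-fold lower in PLT_LPS than in PLT cells (adjusted p = 1.66e-08). None of the 7 passed in PLT_LPS against LPS cells.

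The profiles over the 12 libraries most like each of the 10 genes were ranked among 8325 genes by the root mean square distance of log2 CPM, each centred on its own mean. Ifi209 was nearest to Csf1 at 0.224, and Rab5b to Csf1r at 0.0667. Mboat7 was nearest to Csf2ra at 0.0726, Ly9 to Csf2rb at 0.110 and Ralgds to Csf2rb2 at 0.0841. Zfp719 was nearest to Csf3r at 0.118, Erlec1 to Il3ra at 0.139 and Bhlhe40 to Flt3 at 0.322. For Csf3 it was Herc6 at 0.465. For Csf2 it was Sod2 at 0.293, although low counts and the prior count shape that profile. These distances rest on libraries that share groups and depth, and describe likeness of level only.

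The label of monocytes was set against markers. The 8 monocyte and macrophage markers summed to 36178 to 38852 CPM in PLT_LPS, 32592 to 36138 CPM in LPS, 39055 to 42376 CPM in PLT and 32812 to 36619 CPM in NC libraries, mostly from Lyz2. The monocyte markers Ccr2 and Ly6c2 were present in all libraries, at no less than 41.4 and 35.2 CPM. Of the 8 markers, 3 were higher and 3 lower in LPS than in NC cells, and 3 higher and 4 lower in PLT_LPS than in PLT cells. Ccr2 had 202 to 227 CPM in NC and 54.6 to 65.0 CPM in LPS libraries. Adgre1, from the same list, had 770 to 840 CPM in NC and 3590 to 3694 CPM in LPS libraries. The 8 T and NK cell markers summed to at most 0.691 CPM, with Cd3e at 0 in every library. Stromal and endothelial markers, from cells known to make M-CSF, summed to 32.7 to 36.8 CPM in PLT_LPS, 36.0 to 42.6 CPM in LPS, 2.78 to 3.39 CPM in PLT and 1.999 to 2.86 CPM in NC libraries. Pdgfrb made up most of the sum with LPS, at 22.0 to 25.8 CPM in PLT_LPS, 29.8 to 36.2 CPM in LPS, 0 to 0.0313 CPM in PLT and 0.0340 to 0.175 CPM in NC libraries. Of 4 tested, 2 were higher and 0 lower both in LPS against NC and in PLT_LPS against PLT cells. Over all genes 27.7% and 27.6% were higher. In PLT_LPS against LPS cells 1 was higher, where 4.41% of all genes were. Kdr had 7.58 to 10.4 CPM in PLT_LPS and 2.88 to 4.78 CPM in LPS libraries. It had 1.58 to 1.74 CPM in PLT and 0.912 to 1.19 CPM in NC libraries. Pecam1 and Cdh5 overlapped between all groups, at 0.235 to 1.91 and 0.245 to 0.748 CPM. Col3a1 was at 0 in every library, and Col1a1, Col1a2, Pdgfra and Lepr were at or near 0.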

How the data were processed

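Per the labels' protocols, total RNA (RNeasy Plus Micro) was pre-amplified as cDNA (SMARTer Ultra Low Input, version 4) and sequenced from Nextera XT libraries. Tools named in the submitters' processing notes are Salmon 1.5.2, STAR 2.7.9a, fastp 0.23.1, featureCounts and Subread 2.0.1, in no stated order or role. Each deposited file lists 53819 genes with raw, whole-number counts. The sources used here do not give the authors' genome build, annotation or strand setting, so positions, exon lengths and overlaps come from GENCODE M21 (GRCm38) and promoters from RefSeq (GRCm38.p6). Groups and replicate numbers were taken from the titles.

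Of 26048 genes with a count, 13151 passed filterByExpr and were tested in R 4.3.3 with the quasi-likelihood test of edgeR 4.0.16. Counts were scaled by TMM and fitted as 4 group means over 12 libraries (8 residual degrees of freedom, common dispersion 0.0171), with two-sided tests and Benjamini-Hochberg adjustment over all tested genes at 0.05. CPM use the TMM-scaled library size. Where a group has no count, its fold is a bound set at 3 counts per library, and a ratio against 1 to 3 counts has a counting interval, which covers counting error only, since reads without molecular identifiers are not independent molecules. Intervals are at 95%.

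The 10 genes, the 6 pathway lists (92 genes, 85 tested) and the 10 marker lists (74 genes) were chosen with earlier results of these data known. Named from each list and comparison were up to 3 called genes with the smallest p whose higher group averaged 5 CPM or more, of which some are withheld for evaluation and not reported here; the likeness ranking took named genes with at least 10 CPM in their highest group and a prior count of 2. Alternatives were DESeq2 size factors, library size alone, no filter, a stricter filter, limma-voom (limma 3.58.1), the DESeq2 1.42.0 Wald test, a block for replicate number, only the groups compared, summed beta chains and leaving out each library. A further alternative, list counts without PLT replicate 1, was chosen after seeing the data. Simulated counts were used to check the method.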

Additional observations from a re-analysis of the deposited data

How the results depend on the processing

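Of 1028 values of single genes under the alternatives, 984 kept their direction and side of the threshold, 19 gained and 6 lost a call in the same direction, and 19 changed sign. None of those 19 had been called, and 1 was called after changing sign, Csf2ra in LPS against NC cells on library size alone (adjusted p = 0.0267). The counts of the 10 genes called in PLT against NC cells were 2 with no filter and 2 with DESeq2, against 1. In PLT_LPS against LPS cells they were 1 with DESeq2, 1 with limma-voom and 2 with only the groups compared, against 0. Leaving out each library gave 0 to 4 of the 10 genes in PLT against NC, 6 to 8 in LPS against NC, 0 to 2 in PLT_LPS against LPS, 8 to 9 in PLT_LPS against PLT cells and 0 to 0 in the interaction. Over all genes, the 854 calls of PLT against NC became 1291 with DESeq2 and 415 with only the groups compared, and 410 to 1027 without single libraries. The range without single libraries was 557 to 1640 in PLT_LPS against LPS cells, 5906 to 7426 in LPS against NC and 5835 to 6754 in PLT_LPS against PLT cells. The 208 interaction calls became 371 with no filter, 384 with DESeq2 and 87 to 361 without single libraries. With the replicate block they became 118, and the block moved no other count by over 1.5 times; same-numbered libraries did not deviate together (correlations −0.228 to 0.14 over 18 pairs, 1 of them over 0.1), so the numbers were not taken as pairs. On library size alone Csf1r (−0.06), Csf2ra (−0.31) and Il3ra (−0.11) changed sign in LPS against NC cells, as did Flt3 (−0.20) and Il3ra (−0.16) in PLT_LPS against PLT cells. Csf2 in PLT_LPS against LPS cells was −0.01 with limma-voom. Without single libraries the log2 values that changed sign ranged, in PLT_LPS against LPS cells, over −0.30 to 0.29 for Csf2 and −0.28 to 0.09 for Csf3, and in PLT_LPS against PLT cells over −0.14 to 0.34 for Flt3. In the interaction they ranged over −0.89 to 0.01 for Csf1, −2.12 to 0.05 for Csf2, −0.13 to 4.07 for Csf3, −0.03 to 0.33 for Csf1r, −0.08 to 0.17 for Csf2rb2 and −0.24 to 0.16 for Il3ra. The cause of these changes was not tested. Depth limits Csf2, Csf3 and Flt3 most, since their PLT and NC levels rest on few counts.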
